A study of Triticum aestivum with 12 samples.

Results

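Chromosome 6 of bread wheat (Triticum aestivum) exists in 3 copies, one in each of the subgenomes A, B and D, and 6DL is the long arm of the D copy. Of the 2393 identifiers in the count table that begin with Traes_6DL_, 1438 (60.1%) had at least 10 counts in 3 or more of the 12 libraries, and these are the 6DL genes described here. The same rule kept 57598 of 99386 identifiers over all arms (58.0%). It kept 1300 of 2175 on the long arm of the A copy, 6AL (59.8%), and 1280 of 2133 on the long arm of the B copy, 6BL (60.0%). The members were thus chosen by their counts, and the arm was selected on its many genes lowered by drought in plants sprayed with LRM, so that share is given below as a description, with no test.

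Hexaploid wheat arose by crosses between related grasses, and each gene of 1 subgenome usually has a near-identical counterpart, a homoeologue, at the matching place in the others. The arms 6AL, 6BL and 6DL are such counterparts, so their genes are largely the same families read in the same leaves. Under water shortage, wheat leaves are known to lower many genes of growth and photosynthesis and to raise genes of water-stress protection. Because most homoeologues are alike in sequence, reads of a gene may be counted for its copy on another arm, and every single gene named here is uncertain in that respect.

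All 12 libraries were polyA RNA from leaves of wild-type plants of the variety Chinese Spring L42, in 4 groups of 3. Pots under full irrigation were given 180 ml of water 2 times a week, and pots under drought 30 ml. Within each irrigation, control plants were sprayed with water, and treated plants were sprayed on the leaves with LRM, a biostimulant made from microalgae, at 0.5% on the day after planting and then every 14 days. The groups are called irrigated_water, drought_water, irrigated_LRM and drought_LRM. The question put by the submitters was what LRM does to the transcriptome of irrigated and of drought-stressed wheat. Whether the 3 libraries of a group came from separate plants is not given in the sources used here, so the p-values describe variation among these libraries, which may in part be technical. In leaf samples of this kind, fewer cells of a type and less RNA per cell cannot be told apart. None of the identifiers matched a gene name, so leaf marker genes could not be checked, and no gene function, position or sequence is given for any 6DL gene.

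Libraries held 17541561 to 47305447 counts, and 6DL genes took 442209 to 1203058 of them. The smallest library was drought_LRM 2. Over the 6DL genes, the median absolute log2 difference of a library from the mean of the other libraries of its group ran from 0.144 in drought_water 2 to 0.206 in drought_LRM 1, with drought_LRM 2 next at 0.205. The counts of called 6DL genes, the percents lowered by drought with LRM and the tests by which genes were named were recomputed with libraries left out. Each library was left out in turn, and 3 were left out together (irrigated_water 1, irrigated_LRM 1 and drought_LRM 2). These 3 were picked from earlier work on these data and lay at 0.185, 0.178 and 0.205 on this measure. Results such as the count shares, the percents within level bins and the split at 2-fold are given for all 12 libraries only.

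The rule for the members used counts, and its edge fell among very low genes. There were 1114 members with at least 10 counts in all 12 libraries, and their median level was 4.42 CPM, the TMM-scaled count relative to library size. The 29 members that met the rule in exactly 3 libraries had a median of 0.175 CPM, and the 33 identifiers that met it in only 2 libraries, and so stayed out, had a median of 0.121 CPM. Just inside was Traes_6DL_73C84031F, with 12 counts in irrigated_water 2, 6 and 20 counts in drought_water 2 and 3, 11 counts in irrigated_LRM 2 and 0 counts in the remaining libraries. Just outside was Traes_6DL_710A9C92D, with 104 counts in irrigated_water 2, 103 counts in drought_water 1 and 0 counts elsewhere. A further 561 identifiers of 6DL had 0 counts in every library. The filter of the test kept 1429 of the 1438 members, and the 9 that it left out had 51 to 98 counts over all libraries together.

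As a group, 6DL genes took a larger share of the counts than the genes of either homoeologous arm. These shares are not corrected for length, and 6DL had more members, 1438 against 1300 on 6AL and 1280 on 6BL. Over all arms 57598 genes met the rule. The share of 6DL genes in all counts was 2.53% ± 0.076 (SD, n = 3) in irrigated_water, 2.59% ± 0.0417 in drought_water, 2.55% ± 0.0386 in irrigated_LRM and 2.62% ± 0.0995 in drought_LRM. The ranges of the groups overlapped, from 2.48% to 2.62% in irrigated_water and from 2.52% to 2.72% in drought_LRM. For 6AL the shares were 1.92% ± 0.066, 2.02% ± 0.0448, 1.98% ± 0.0214 and 2.10% ± 0.0685 in the same order. The count on 6DL was 1.24 to 1.33 times that on 6AL, lowest in the drought_LRM libraries (1.24, 1.24 and 1.26), and 1.97 to 2.25 times that on 6BL. In each of the 12 libraries 6DL was thus above both arms.

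A large part of that share lay in few genes. The 10 genes with the highest counts held 41.3% of all 6DL counts, against 42.0% for the top 10 of 6AL and 32.8% for those of 6BL. In single libraries the 6DL value ran from 38.4% to 43.0%. Traes_6DL_DE5D1D2FD alone held 12.6% of the 6DL counts and had the highest level per length of the arm, 3915 CPM per kb. Its level was 2917 ± 225 CPM in irrigated_water, 3260 ± 126 in drought_water, 3374 ± 246 in irrigated_LRM and 3411 ± 628 in drought_LRM (SD, n = 3), and it was called in no comparison. Second per length was Traes_6DL_22C536081, with 942 CPM per kb and 6.28% of the 6DL counts. The upper 50% of the 6DL counts came from 18 genes, 1.25% of the members.

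The median level of 6DL genes lay between those of the homoeologous arms, below 6AL and above 6BL. The median level over the 12 libraries was 2.65 CPM on 6DL, 2.80 on 6AL, 1.96 on 6BL and 2.33 over all genes of the rule. Per length, which allows genes to be compared, the medians were 1.48 CPM per kb on 6DL, 1.72 on 6AL, 1.36 on 6BL and 1.51 over all genes. At the 90th percentile the order turned, with 15.8 CPM per kb on 6DL, 13.4 on 6AL, 11.2 on 6BL and 12.3 over all genes. At that percentile 6DL was the highest of the 3 arms. The length implied by the tables had a median of 1.74 kb on 6DL, 1.70 kb on 6AL and 1.52 kb on 6BL. The spread within groups, as the SD of log2(CPM + 0.5), had a median of 0.202 on 6DL and 6AL, 0.208 on 6BL and 0.210 over all genes. The median level per length on 6DL barely moved between groups, from 1.48 ± 0.0164 CPM per kb in irrigated_water to 1.52 ± 0.0448 in drought_LRM (SD of 3 library medians), and the ranges of these groups, 1.47 to 1.50 and 1.47 to 1.55, overlapped.

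Some members may share reads with a neighbour in the annotation. Among the members, 33 fell into 15 sets whose identifiers share the first 9 characters after the arm, and none of these sets spanned 2 of the 3 arms. In the set with the highest level, Traes_6DL_1CCB8CC4B held 0.236% and Traes_6DL_1CCB8CC4B1 held 0.243% of the 6DL counts. The next set was Traes_6DL_07AEDE075 with 0.0574% and Traes_6DL_07AEDE0751 with 0.0557%. Their near-equal counts leave each uncertain as a separate gene. None of the genes lowered by drought with LRM was in such a set. Some of them, such as Traes_6DL_1B77BC5531, have identifiers of the same longer form. Whether these share reads with a gene outside the sets is not known. Among the raised genes were all members of the sets of Traes_6DL_213635941 and Traes_6DL_EAE6E3AC1, and also Traes_6DL_EAD21DA1A1. The number of raised genes may thus hold the same reads more than once.

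Drought in water-sprayed plants changed few 6DL genes past the threshold, an adjusted p below 0.05 in edgeR's quasi-likelihood test over 57226 genes. Of the 1429 tested, 11 were called, beside 0.830% of all genes tested. It raised 10 (0.700%), beside 0.744% of all genes tested, and lowered 1, beside 0.0856%. On 6AL 11 were raised (0.858%) and 0 lowered, and on 6BL 5 were raised (0.395%) and 1 lowered (0.0791%). The median log2 change was -0.01 on 6DL and 6AL, 0.03 on 6BL and 0.01 over all genes. The count of 10 on 6DL rested on single libraries. It was 4 without any 1 of the irrigated_water libraries, 5 without drought_water 1 or drought_water 2, 22 without drought_water 3, 6 without drought_LRM 2 and 2 without the 3 libraries together. The count of 1 lowered gene was 2 without drought_LRM 1 and 3 without drought_water 3, was 1 without drought_LRM 2, and was 0 without any other single library.

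Among the genes called higher with water, the log2 change was largest in Traes_6DL_20A343A96. Genes that were not called had larger fitted changes. With water it had 3.89, 1.48 and 3.72 CPM in the irrigated libraries and 99.1, 67.9 and 41.1 CPM in the drought libraries. The groups were far apart, with a log2 change of 4.53 (standard error 0.34, edgeR adjusted p = 6.49e-05), and the call held in all 19 alternatives. With LRM its levels were 0.737, 0.595 and 0.806 CPM in irrigated plants and 104, 99.5 and 99.7 CPM in drought plants. There the log2 change was 7.13 (standard error 0.40, edgeR adjusted p = 1.01e-06).

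Second among the called genes was Traes_6DL_E4582581B, with 1.82, 1.75 and 1.78 CPM in irrigated_water against 23.1, 7.30 and 4.35 CPM in drought_water. Its drought libraries were all above the irrigated ones but spread widely, and drought_water 1 stood above the others. The log2 change was 2.70 (standard error 0.48, edgeR adjusted p = 0.0188), and 1.70 without drought_water 1. The call was lost without irrigated_water 1, 2 or 3 (adjusted p = 0.0683, 0.122 and 0.0946) and without the 3 libraries together. With LRM the same gene went from 1.86, 1.06 and 1.31 CPM to 84.5, 57.0 and 62.3 CPM, again with no overlap.

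Only Traes_6DL_11D060B98 was called lower with water. It stood at 4.45, 3.33 and 3.52 CPM in irrigated_water and at 2.23, 2.36 and 2.24 CPM in drought_water, and it is given for having the smallest p among the lowered genes. The groups did not overlap, and the log2 change was -0.72 (standard error 0.15, edgeR adjusted p = 0.0403). It was not the gene called lower without drought_LRM 2. Among 19 alternatives 14 did not call it, with an adjusted p of up to 0.202, among them every left-out library but drought_LRM 1 and the 3 libraries together. With LRM its log2 change was -1.01.

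**Figure D1:**
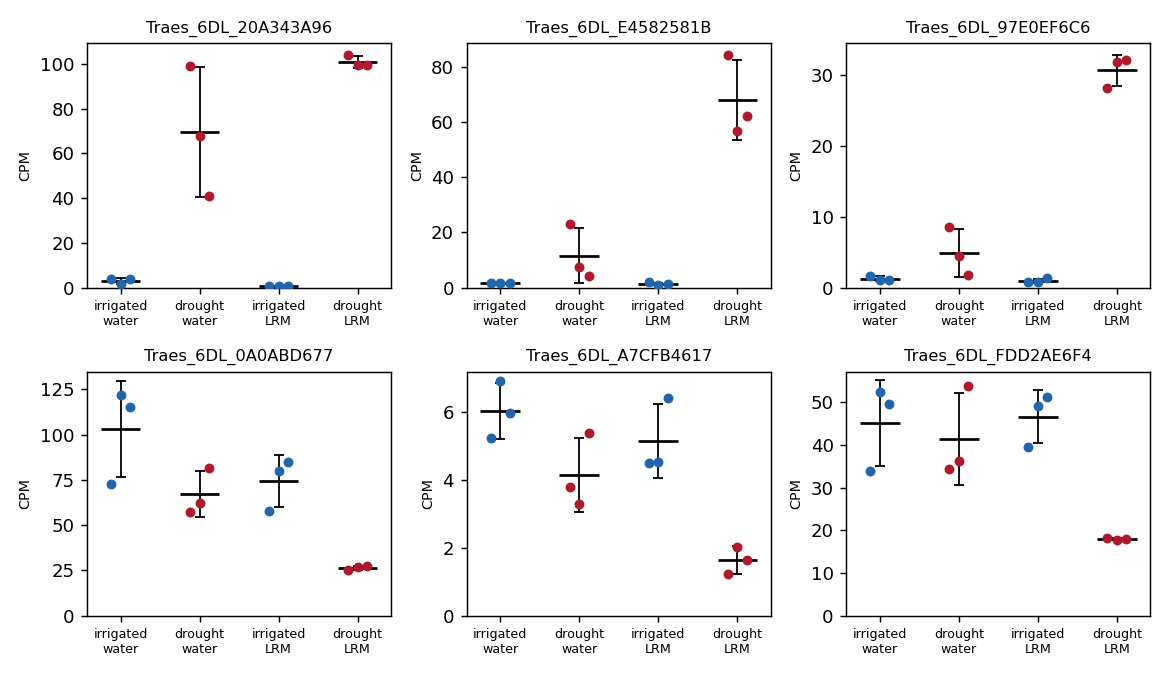
Level of named 6DL genes by group, in TMM-scaled CPM on linear axes that start at 0, 1 panel per gene; points are libraries (blue irrigated, red drought), lines are means and bars are SD, n = 3. Traes_6DL_20A343A96 sat at 1.48 to 3.89 CPM in irrigated_water and at 99.5 to 104 CPM in drought_LRM, while Traes_6DL_0A0ABD677 sat lowest in drought_LRM, at 25.2 to 27.3 CPM.

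Drought in LRM-sprayed plants changed many more 6DL genes past the threshold, and with TMM scaling more of them fell than rose, an order that turned with library totals. Of the 1429 tested, 300 were called (21.0%), beside 17.2% of all genes tested. Among them 159 fell (11.1%) and 141 rose (9.87%), beside 8.60% and 8.65% of all genes. Some of the raised genes were in the sets of like identifiers that may share reads. The changes were small for most of the lowered genes, with a median log2 change of -0.68 and only 39 of the 159 at a 2-fold drop or more. On 6AL 121 fell (9.44%) and 101 rose (7.88%), and on 6BL 92 fell (7.27%) and 96 rose (7.59%). Among the 41 arms or chromosomes of the table, 6DL came 1st in the percent lowered, 5th in the percent raised and 9th in the median level of its tested genes. Next in the percent lowered was 1AL with 10.6%, and the short arm of the same chromosome, 6DS, had 7.76%. The place of 6DL in that order is what chose it. With library totals in place of TMM, 89 genes fell (6.23%, beside 5.13% of all genes) and 178 rose, and the median log2 change of all genes was then 0.16 and that of 6DL 0.12, against 0.00 and -0.04 with TMM. Without single libraries the count of lowered genes ran from 106 to 165.

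**Figure D2:**
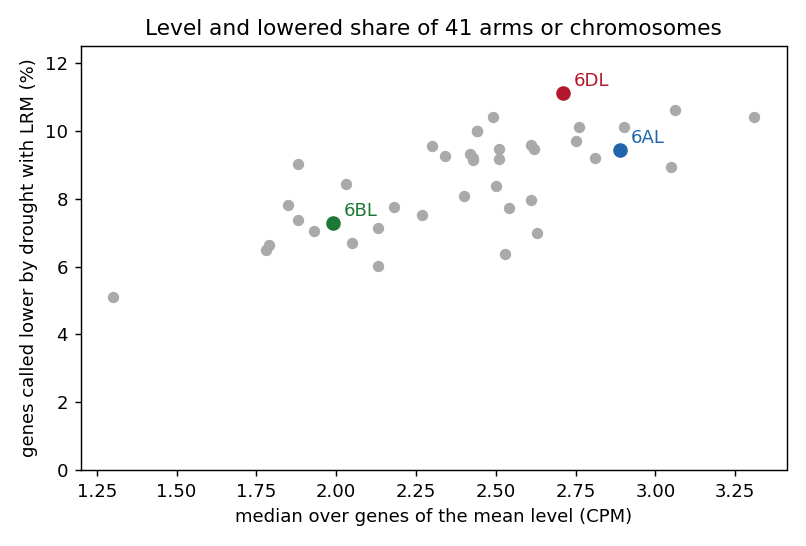
Percent of tested genes lowered by drought with LRM against the median level of the tested genes in TMM-scaled CPM, 1 point per arm or chromosome of the table. 6DL lies highest on the vertical axis at 11.1% with a median of 2.71 CPM, and 6AL and 6BL are at 9.44% and 7.27%.

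With TMM scaling, the excess of 6DL lay in changes under 2-fold. The split was not repeated with library totals, where 6.23% of the 6DL genes and 5.13% of all genes fell. Genes lowered 2-fold or more were 2.73% of the 6DL genes tested and 2.70% of all genes, against 2.03% on 6AL and 1.90% on 6BL. Genes lowered by less were 8.40% on 6DL (120 genes) and 5.90% of all genes, against 7.41% on 6AL and 5.38% on 6BL. The median log2 change of the lowered genes was -0.68 on 6DL, -0.70 on 6AL, -0.73 on 6BL and -0.76 over all genes.

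Lowered genes were well above the others in level. Their median was 10.5 CPM on 6DL, against 4.77 for the raised genes and 2.06 for the genes called in neither direction. The lowered genes of 6AL had a median of 8.84 CPM, those of 6BL 7.53 and those of all arms 8.12. Lengths differed less, with medians of 1.67 kb, 1.91 kb and 1.75 kb for lowered, raised and remaining 6DL genes. Of the 18 genes that held the upper 50% of the 6DL counts, 8 were lowered and 0 raised with LRM, and the median of their log2 changes was -0.33. With water, 0 of these 18 were called and the median was -0.05. On 6AL 7 of the corresponding 20 genes were lowered and 0 raised, and on 6BL 11 of 38 were lowered and 3 raised. The corresponding share over all arms is not given, so these counts say nothing particular to 6DL.

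To see how far level goes with the excess, all tested genes were put into 5 equal bins of mean CPM. The percent of 6DL genes lowered rose from bin to bin, from 2.58% and 3.27% in the lowest bins over 7.45% and 13.5% to 25.0% in the highest, which began at 9.02 CPM. All genes tested rose in the same way, from 1.97% and 3.73% over 6.72% and 10.2% to 20.4%. The top bin of 6AL reached 20.9% and that of 6BL 19.2%. The 6DL percent was above that of all genes in 4 of the 5 bins and below it in the bin from 0.613 to 1.58 CPM. The highest bin held 340 of the 6DL genes (23.8%) and 224 of the 6BL genes (17.7%). The spread of 6DL genes between replicates fell over the same bins, from a median SD of 0.265 to 0.140 on the log2 scale. What part the smaller spread of high genes has in these percents was not tested.

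**Figure D3:**
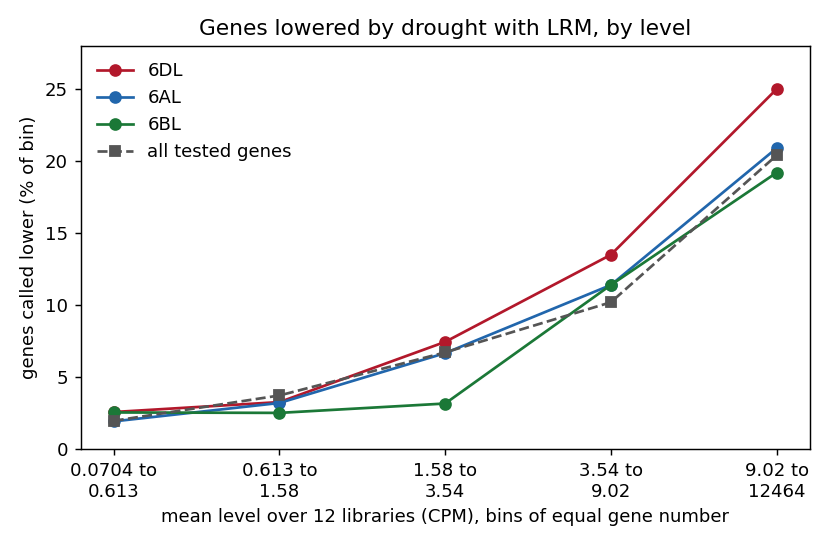
Percent of tested genes lowered by drought with LRM in 5 equal bins of mean level, for 6DL, 6AL, 6BL and all genes tested. The lines climb together, and 6DL ends highest at 25.0% in the top bin, against 20.4% for all genes.

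The percent lowered on 6DL was also set beside the percent expected from level. If 6DL genes had been lowered at the rate of all genes of the same bin, 9.20% of them would have been lowered, or 131 genes in place of 159. The gap between 6DL and all genes was 2.53 percentage points, of which 0.60 lay between all genes and the percent expected from level and 1.93 between that and the observed percent. The arm was chosen for its percent lowered, so the second difference holds the effect of that choice. With 10 bins the expected percent was 9.37%, with bins of level per length 8.89%, and with bins drawn from the water-sprayed libraries alone 9.29%. For 6AL the expected percent was 9.16% and the observed 9.44%, and for 6BL they were 8.10% and 7.27%. For drops of 2-fold or more the 6DL percent was 2.73% both expected and observed. Raised genes of 6DL were also above their level, at 9.87% against 8.99%. The observed percent lowered was above the expected one on 6DL in 19 of 19 alternatives. These refit the same data, and the choice of the arm favours that direction, so nothing is concluded from the tally. Observed and expected were 6.23% and 5.51% with library totals and 7.39% and 6.18% without irrigated_LRM 2. With the replicate block they were 11.5% and 9.08%.

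Among the genes lowered with LRM that had at least 5 CPM on average in irrigated_LRM and no overlap between groups, 2 had the largest drops. Lowered genes outside these limits had larger fitted changes. In Traes_6DL_A7CFB4617 the levels with LRM were 4.50, 4.53 and 6.43 CPM in irrigated plants and 1.22, 2.04 and 1.64 CPM in drought plants. All drought libraries were lower, by a log2 change of -1.70 (standard error 0.24, edgeR adjusted p = 0.000216). With water its irrigated libraries had 5.25, 6.91 and 5.98 CPM and its drought libraries 3.80, 3.28 and 5.38 CPM, which overlapped. Traes_6DL_0A0ABD677, a gene of higher level, had 57.9, 80.2 and 84.9 CPM in irrigated_LRM and 25.2, 26.9 and 27.3 CPM in drought_LRM. Its log2 change was -1.49 (standard error 0.20, edgeR adjusted p = 0.000139). With water it went from 72.7, 122 and 115 CPM to 57.5, 62.5 and 81.5 CPM, so that 1 drought library was above the lowest irrigated one. Both calls with LRM held in all 19 alternatives.

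The largest fitted rise with LRM was in Traes_6DL_C5F05FFAD, a gene with 0 counts in all 6 irrigated libraries. Under drought it had 118, 38 and 10 counts with water and levels of 10.4, 6.93 and 5.99 CPM with LRM. Set against 3 counts over the irrigated_LRM group, it was at least 276-fold higher in drought_LRM, a bound that covers counting error only (edgeR adjusted p = 0.000302).

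The genes lowered with LRM were mostly on the same side in the water-sprayed libraries. The contrast behind the call did not compare these libraries, but they shared its filter, scaling and estimate of spread, so the sides are given as a description. Of the 159, 146 (91.8%) had a log2 change below 0 between drought_water and irrigated_water, with a median of -0.20 and a middle range of -0.34 to -0.10. An unadjusted p below 0.05 was reached by 43 of them (27.0%), all lower, and 1 was called. The same share below 0 was 107 of 121 (88.4%) on 6AL, 82 of 92 (89.1%) on 6BL and 88.1% of the lowered genes of all arms. The 1129 genes called in neither direction had 576 below 0 (51.0%) and a median of -0.01. Of the 141 raised genes, 124 (87.9%) were above 0 with water, with a median of 0.26, and 10 of them were called, against 90.1% and 0.33 over all arms. In the plot of drought change with water against drought change with LRM, most of the lowered genes lie left of 0, and their median is nearer to 0 on the water axis.

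**Figure D4:**
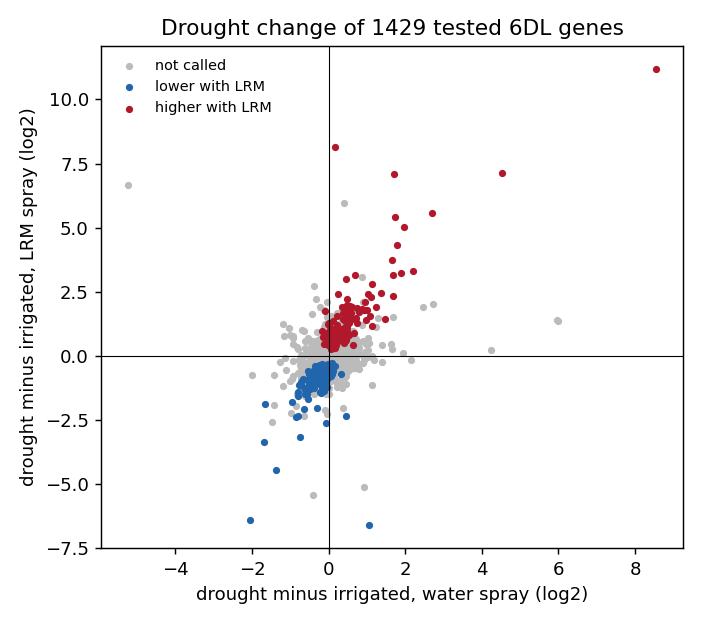
Log2 change under drought with LRM (vertical) against that with water (horizontal) for the tested 6DL genes, 1 point per gene, coloured by the call with LRM. The lowered genes have a median of -0.68 with LRM and -0.20 with water, and the raised genes 0.93 and 0.26.

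The counts summed over these genes are given by library. Both sets were chosen by their change between irrigated_LRM and drought_LRM, so the shares in those groups restate the choice. The 159 lowered genes took 0.822%, 0.864% and 0.866% of the counts in irrigated_water and 0.735%, 0.760% and 0.812% in drought_water. All drought_water values were below the irrigated_water ones, though the nearest were close. In irrigated_LRM the shares were 0.789%, 0.804% and 0.841%, and in drought_LRM 0.604%, 0.590% and 0.636%. The irrigated LRM libraries thus overlapped both water groups. The 141 raised genes took 0.143% ± 0.0193 in irrigated_water and 0.181% ± 0.0291 in drought_water (SD, n = 3), with ranges of 0.129% to 0.165% and 0.150% to 0.208% that overlapped. They took 0.134% ± 0.00503 in irrigated_LRM and 0.288% ± 0.0110 in drought_LRM. The lowered genes of 6AL took 0.375% to 0.397% in irrigated_water and 0.336% to 0.376% in drought_water, which overlapped. Those of 6BL took 0.202% to 0.217% and 0.173% to 0.198%, which did not. The lowered genes of all arms took 41.4% to 46.0% in irrigated_water and 39.1% to 43.6% in drought_water, which overlapped. Their mean in irrigated_water was 44.4% of all counts. Those of 6DL took 0.851% there, out of the 2.53% that fell to 6DL. By counts, lowered genes were thus a smaller part of 6DL than of all arms, though a larger part by number of genes.

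**Figure D5:**
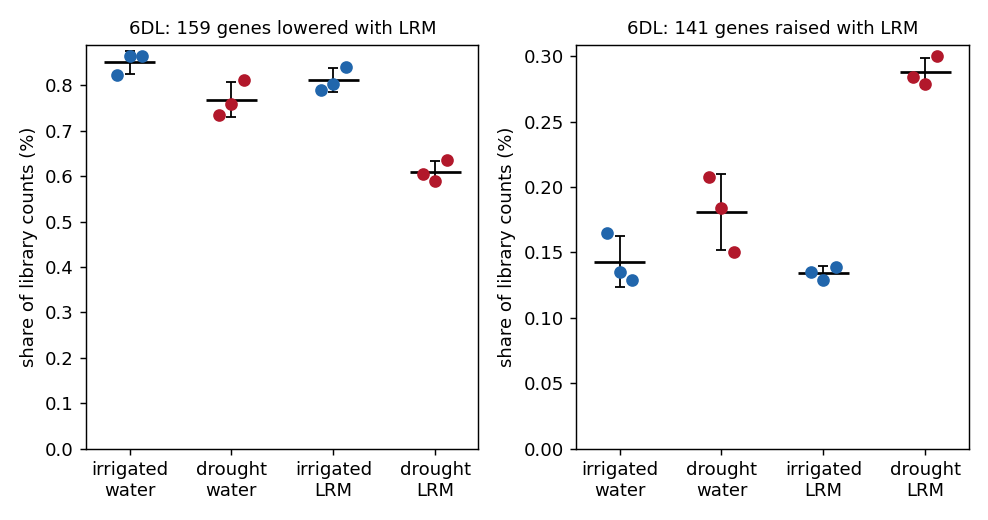
Share of library counts taken by the 6DL genes lowered and raised by drought with LRM, in percent of all counts; points are libraries (blue irrigated, red drought), lines are means and bars are SD, n = 3. The lowered genes fall to 0.590% to 0.636% in drought_LRM, below the 0.735% to 0.866% of the water-sprayed libraries, and the raised genes reach 0.279% to 0.300% there, differences within LRM that restate how the genes were chosen.

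Below the threshold, lower levels under drought with water were about as frequent on 6AL as on 6DL. An unadjusted p below 0.05 with a lower level in drought_water was found for 80 genes on 6DL (5.60%), 76 on 6AL (5.93%), 55 on 6BL (4.35%) and 4.60% of all genes tested. At the rate of all genes of the same level bin, 4.81% would be reached on 6DL and 4.84% on 6AL. For higher levels the 6DL share was 6.23% (89 genes), beside 6.76% of all genes and 6.99% at the same level. Among the 41 arms or chromosomes, the median log2 change of 6DL with water ranked 5th from the lowest, at -0.011, a place shared with 6AL.

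LRM in fully irrigated plants moved no 6DL gene past the threshold, and 0% of all genes tested passed it in edgeR. An unadjusted p below 0.05 was reached by 128 members (8.96%), beside 8.70% of all genes. DESeq2 called 2 members higher and 8 lower. The share that DESeq2 called over all genes is not given, so these counts say nothing particular to 6DL. The smallest p among higher genes was that of Traes_6DL_B99906102, with 17.1, 17.1 and 14.6 CPM in irrigated_water and 23.1, 21.6 and 21.3 CPM in irrigated_LRM. These groups did not overlap, and the log2 difference was 0.43 (standard error 0.10, edgeR adjusted p = 0.393, DESeq2 adjusted p = 0.00990). Among lower genes it was that of Traes_6DL_20A343A96, described above for its rise under drought, with a log2 difference of -2.05 (standard error 0.41, edgeR adjusted p = 0.366, DESeq2 adjusted p = 0.00164) and irrigated levels that did not overlap between sprays.

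Under drought, LRM against water gave 58 higher 6DL genes (4.06%) and 69 lower ones (4.83%), beside 4.26% and 4.23% of all genes tested. Together these were 127 genes (8.89%), beside 8.49%. On 6AL 36 were higher (2.81%) and 60 lower (4.68%), and on 6BL 48 (3.79%) and 59 (4.66%). At the level-matched rate the lower share of 6DL would be 4.59%, so 6DL was close to the background here. The comparison shares the drought_LRM libraries with the drought effect under LRM and the drought_water libraries with that under water, and its calls are not independent of theirs. With library totals the order of the counts turned, to 75 higher and 46 lower. The counts moved with single libraries, to 29 higher and 42 lower without drought_LRM 1, 30 and 43 without drought_water 2, and 24 and 21 without drought_water 3.

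Named among the higher genes was Traes_6DL_97E0EF6C6, with 8.47, 4.45 and 1.77 CPM in drought_water and 28.1, 31.7 and 32.1 CPM in drought_LRM. The water libraries were scattered and the LRM libraries tight, with a log2 difference of 2.64 (standard error 0.36, edgeR adjusted p = 0.00123), or 3.31 without drought_water 1. The other was Traes_6DL_C5F05FFAD, at 2.65 (standard error 0.57, edgeR adjusted p = 0.0194). Its value was 3.76 without drought_water 1, and its call was lost in DESeq2 (adjusted p = 0.0692), without drought_LRM 1 (adjusted p = 0.0720) and without drought_water 2 (adjusted p = 0.0853).

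Named among the lower genes was Traes_6DL_8F3A2A337, with 6.81, 6.71 and 9.59 CPM in drought_water and 1.22, 3.71 and 3.15 CPM in drought_LRM. The groups did not overlap, and the log2 difference was -1.58 (standard error 0.35, edgeR adjusted p = 0.0143). The call was lost without drought_LRM 1 (adjusted p = 0.0513) and without drought_water 3 (adjusted p = 0.0709). The other was Traes_6DL_0A0ABD677, whose drought levels with LRM lay below all those with water, at a log2 difference of -1.34 (standard error 0.20, edgeR adjusted p = 0.00160).

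Whether the drought effect itself differed between the sprays was tested by the interaction. It passed for 9 of the 1429 genes (0.630%), beside 0.851% of all genes tested, 5 with a more positive drought change with LRM (0.350%, beside 0.467%) and 4 with a more negative one (0.280%, beside 0.384%). On 6AL there were 2 (0.156%) and 3 (0.234%), and on 6BL 4 (0.316%) and 4 (0.316%). The 4 more negative 6DL genes were all among the 159 genes lowered with LRM. For the remaining lowered 6DL genes the drought change was not shown to differ between sprays. Both counts on 6DL fell to 0 without the 3 libraries together, and single libraries moved them from 0 to 19 and from 0 to 10.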

How the data were processed

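Per the labels, polyA RNA of leaves was sequenced in 12 libraries, 4 groups of 3. The authors deposited a table of whole-number read counts per gene and a second table, taken as FPKM from its values, since no header names its unit. Per the submitters' processing notes, FastQC, HISAT2, StringTie and DESeq2 were used. For genome build, annotation and strand setting, the value is not given in the sources used here. The deposited FPKM served only to imply a length per gene, as the median over libraries where the count was at least 10. In 6DL genes 7 cells were about 1000 times too high, and they were not corrected before that median was taken.

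All counts were fitted together with edgeR 4.0.16 in R 4.3.3 (quasi-likelihood test, TMM, filterByExpr, group means), tested on simulated data, and 5 contrasts were adjusted by Benjamini-Hochberg over 57226 genes. A call is an adjusted p below 0.05, a log2 change is that of the fit, and SE was derived from its F value. CPM are TMM-scaled. DESeq2 1.42.0 and the settings of the closing section were alternatives. Named genes were, per contrast, the 2 called 6DL genes with the largest change each way, at least 5 CPM on average in the group that was higher and libraries that did not overlap between groups (overlap was not considered for the interaction). Where none passed, the gene with the smallest p was taken. The 2 genes highest per length, 2 pairs with like identifiers and the genes at the edge of the rule were added. The members, gene lists and the 3 libraries left out together were chosen with earlier results of these data known. Alternatives on the observed percents, on the percents expected from level for 6AL and 6BL and on the share below 0 with water were added after seeing the data. None of the 99386 identifiers matched IWGSC CS RefSeq v2.1. No row without a gene identifier was found.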

Additional observations from a re-analysis of the deposited data

Results flagged for a closer look

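The drought change differed between LRM and water, by the interaction term of the edgeR fit, for 9 of the 6DL genes tested (0.630%). Over all genes tested the share was 0.851%, so 6DL was not above the background. In Traes_6DL_97E0EF6C6 the drought change was larger with LRM by 3.05 on the log2 scale (standard error 0.62, edgeR adjusted p = 0.0381). Its irrigated libraries had 1.65, 1.07 and 1.07 CPM with water and 0.791, 0.728 and 1.29 CPM with LRM, at similar low levels. In 11 of 19 alternatives the call was lost, with an adjusted p of up to 0.247. It was lost without any single library of irrigated_water, irrigated_LRM or drought_LRM (adjusted p of 0.0605 to 0.113) and without drought_water 2 (adjusted p = 0.0958). Without drought_water 1 it was kept at a larger difference of 3.72.

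For Traes_6DL_20A343A96 the difference was 2.59 (standard error 0.50, edgeR adjusted p = 0.0337), between a drought change of 4.53 with water and 7.13 with LRM. In irrigated plants its level with LRM was below that with water, and under drought the levels of 99.5 to 104 CPM with LRM and 41.1 to 99.1 CPM with water lay close at the upper end. Of 19 alternatives 10 did not call the difference, with an adjusted p of up to 0.202. Among them were those without any single library of irrigated_LRM or drought_LRM, without irrigated_water 1 or 3 and without drought_water 2 (adjusted p of 0.0547 to 0.100).

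Traes_6DL_FDD2AE6F4 had a difference of -1.24 (standard error 0.26, edgeR adjusted p = 0.0422). Its levels were 33.8, 52.5 and 49.5 CPM in irrigated_water, 34.3, 36.2 and 53.8 CPM in drought_water, 39.6, 49.1 and 51.2 CPM in irrigated_LRM and 18.3, 17.7 and 18.0 CPM in drought_LRM. The drought_LRM libraries were low and the other groups overlapped. The call was lost in 12 of 19 alternatives, with an adjusted p of up to 0.144. In Traes_6DL_6CD63E299 the difference was -0.78 (standard error 0.17, edgeR adjusted p = 0.04996), and 16 of 19 alternatives did not call it, with an adjusted p of up to 0.232. Both calls were lost without any single library other than drought_water 1.

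The counts of the interaction, 5 more positive and 4 more negative, moved with single libraries. Without drought_water 1 they were 19 and 10, without drought_water 2 they were 0 and 0, and without drought_water 3 they were 3 and 0. Without drought_LRM 1, 2 and 3 they were 1 and 2, 1 and 0, and 1 and 2. Without irrigated_LRM 1, 2 and 3 they were 1 and 0, 0 and 0, and 1 and 0. Without irrigated_water 1, 2 and 3 they were 1 and 0, 1 and 0, and 3 and 1. The cause of these flags was not tested.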

How the results depend on the processing

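The alternatives were library totals or relative log expression factors, DESeq2, the member rule or no filter, the replicate number as a block, each library left out and 3 libraries left out together. Genes lowered on 6DL by drought with LRM numbered 89 with library totals (178 raised) and 106 to 165 without single libraries, and library totals gave 71 on 6AL (82 to 121 without single libraries) and 58 on 6BL (67 to 100). The percent expected from level on 6DL was 5.51 with library totals, 7.69 without the 3 libraries and 6.18 to 9.58 without single libraries. For the lowered genes the share below 0 with water was 96.9% without the 3 libraries and 82.1% to 94.5% without single libraries. Drought with water gave 23 higher and 12 lower 6DL genes in DESeq2, 2 and 0 without the 3 libraries, 0 lower with library totals or with no filter, and 4 to 22 higher and 0 to 3 lower without single libraries. LRM in irrigated plants gave 2 higher and 8 lower in DESeq2. LRM under drought gave 24 to 61 higher and 21 to 81 lower without single libraries. The interaction gave 23 and 23 in DESeq2, 9 higher with no filter, 2 lower with library totals, 0 and 0 without the 3 libraries, and 0 to 19 and 0 to 10 without single libraries. Of all genes tested, drought with LRM lowered 5.13% with library totals and 5.61% to 8.76% without single libraries. For raised genes and for the other contrasts, shares over all genes under the alternatives are not given. Those counts thus do not tell a move on 6DL from one over all genes. The cause of these moves was not tested. Deviations from the group means correlated weakly between same-numbered libraries of different groups (18 pairs, r from -0.12 to 0.148). Pairs with different numbers ran from -0.232 to 0.163. With 3 libraries per group such correlations cannot settle whether the replicate numbers mark a shared block. With the replicate block the interaction gave 10 higher and 11 lower 6DL genes. In the lowest level bin 2.58% of the 6DL genes were called lower, and there the spread between replicates was largest; what part low counts have in this was not tested.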

Other observations

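A few genes of the table were on in some libraries of a group and off in others. Taking 0 counts in 1 library and at least 50 in another of the same group, 2 of the 1438 members of 6DL met this description (0.139%), against 4 on 6AL (0.308%), 4 on 6BL (0.312%) and 253 over all arms (0.439%). Both were chosen after their values were seen. Traes_6DL_61259605F had 0, 235 and 136 counts in irrigated_water, 356, 0 and 0 in drought_water, 0, 126 and 0 in irrigated_LRM and 321, 157 and 424 in drought_LRM. It was thus at 0 in 5 libraries and above 100 counts in the other 7. Traes_6DL_07FE24440 had 0, 15 and 43 counts in irrigated_LRM and 69, 0 and 39 in drought_LRM, but 29 to 45 counts in each water-sprayed library. Neither was lowered by drought with LRM.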
